A study of Mus musculus with 21 samples.

Results

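Transcripts of 10 genes of the BCL2 family were measured in sorted mouse hematopoietic stem cells (HSCs): the survival genes Bcl2, Bcl2l1, Bcl2l2 and Mcl1, and the death genes Bcl2l11, Bid, Bad, Bak1, Bmf and Bok. They were taken by symbol from the deposited count table, which holds 21000 genes, and all 10 were found in it. HSCs were CD150+ CD48- Lineage- Sca-1+ c-Kit+ bone marrow cells of wild-type mice, and 3000 to 3500 were isolated from the treated mice for each library. The mice were 10 weeks old and received intraperitoneal PBS or the antimetabolite 5-fluorouracil (5-FU) at 150 mg/kg, either once or 3 times with 21 days between administrations. For mice given 3 administrations the sources do not say whether that age was reached at the first administration or at isolation. HSCs were isolated 5 days after the last administration (day 6) of PBS or 5-FU, or 20 days after the last 5-FU administration (day 21), and HSCs of untreated mice 2 years old formed a separate group. The 7 groups held 3 libraries each: PBS once, 5-FU once at day 6, 5-FU once at day 21, PBS 3 times, 5-FU 3 times at day 6, 5-FU 3 times at day 21, and old. PBS libraries exist at day 6 only, so day 21 libraries were set against a PBS group of another day.

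BCL2 family proteins decide whether the outer membrane of the mitochondrion is opened, which releases cytochrome c and starts the caspases. The survival proteins BCL2, BCL-XL (Bcl2l1), BCL-W (Bcl2l2) and MCL1 bind and restrain the pore-forming effectors BAX and BAK (Bak1), while BOK is a related effector that is held in check mainly by its degradation. BH3-only proteins such as BIM (Bcl2l11), BID, BAD and BMF act upstream, by occupying the survival proteins or by activating the effectors, and MCL1 is known to be required for the maintenance of HSCs. 5-FU kills cycling progenitors, and the quiescent HSCs that remain enter the cell cycle in the days that follow. All values below are transcript levels, and the activity of several of these proteins is set by phosphorylation, cleavage or degradation that RNA does not show.

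The libraries held 22184885 to 38649033 counts, with a median of 26962256, so that a floor of 3 counts stood at 0.0850 to 0.128 normalized CPM (CPM, read counts set to a common library size, with TMM factors over all 21 libraries). All 12 HSC markers examined were detected in every group, at a summed 4704 to 5123 CPM in PBS once, 3809 to 3994 CPM in 5-FU once at day 6, 4591 to 4903 CPM in PBS 3 times and 3430 to 3544 CPM in 5-FU 3 times at day 6. Between 5-FU and PBS at day 6, 3 of the 12 passed higher and 3 lower after 1 administration, against 22.2% of all genes. After 3 administrations 1 passed higher and 5 lower, against 18.1%. The median log2 fold changes of the 12 were 0.15 and −0.21, so the sums do not give the direction of each marker. The summed level of 13 myeloid markers was 100.3 to 142 CPM in PBS once and 61.2 to 75 CPM in 5-FU once at day 6, and 92.3 to 124 CPM in PBS 3 times and 54.9 to 80.4 CPM in 5-FU 3 times at day 6. That of 6 megakaryocyte markers was 165 to 202 CPM in PBS once and 107 to 112 CPM in 5-FU once at day 6. In the repeated series it was 177 to 185 CPM with PBS and 151 to 160 CPM with 5-FU at day 6, and in old HSCs 215 to 266 CPM. At day 21 it was 124 to 144 CPM after 1 and 172 to 187 CPM after 3 administrations of 5-FU. The 5 B cell markers summed to 37.9 to 44.9 CPM in PBS once and 35.4 to 44.5 CPM in 5-FU once at day 6. The 5 T and NK cell markers summed to 16.1 to 18.3 CPM and 8.22 to 9.68 CPM in these groups, and of the 2 that could be tested 1 passed, lower. Of the lymphoid markers, Pax5, Cd3e and Cd8a had 0 counts in every library of PBS once and of 5-FU once at day 6. The 6 erythroid markers summed to 16.5 to 28.9 CPM in PBS once and 41.4 to 109 CPM in old HSCs. After 1 administration of 5-FU they summed to 14.4 to 23.4 CPM at day 6 and 17.4 to 35.9 CPM at day 21. After 3 administrations these sums were 13.9 to 20.9 CPM and 20.7 to 42.7 CPM. The 5 endothelial and stromal markers summed to 38.0 to 55.5 CPM in PBS once and 36.8 to 39.2 CPM in 5-FU once at day 6. The part of these markers in the results below was not tested. The gate was widened to c-Kit-dim cells and Mac-1 was left out of the lineage antibodies at day 6 after 5-FU, so gate and treatment cannot be told apart there, and in bulk RNA fewer cells of a type and less RNA per cell cannot be told apart. The columns of the 6 libraries of PBS once and 5-FU once at day 6 carried a suffix in the table that the other 15 lacked, and in comparisons of these with the other libraries the suffix and the group cannot be told apart. Comparisons named below also shared libraries, each PBS and each day 6 group serving in more than 1 of them.

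By the GENCODE annotation of GRCm38, which is the mm10 assembly of the deposited table, Bok lies on chromosome 1 at 93685660 to 93695764 on the plus strand, and Bcl2l1 on chromosome 2 at 152780668 to 152831728 on the minus strand. Chromosome 2 also holds Bcl2l11, at 128126038 to 128162547 on the plus strand, and Bmf, at 118528757 to 118549687 on the minus strand. These 4 genes and Mcl1 share no exonic base with another gene. Exons of the other 5 are shared in part, 25.5% of the exonic bases of Bak1 with Ggnbp1, 20.5% of Bad with Gpr137, 17.7% of Bid with Bcl2l13, 13.3% of Bcl2l2 with Gm20521 and 6.09% of Bcl2 with D630008O14Rik. Whether reads were counted by strand is not stated, so these 5 values may hold reads of the overlapping gene. Gm20521 lies on the same strand as Bcl2l2, where counting by strand would not separate them, and the other overlapping genes lie on the opposite strand.

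RefSeq lists 16 promoters for the 10 genes, and the 250 bases before each start were searched on both strands. A GC box (GGGCGG or CCGCCC) stood in 8 of them, belonging to 7 of the 10 genes, against 32.7% of all 32851 promoter windows of the same length. The FOXO motif TGTTTAC, or GTAAACA on the other strand, stood in the outer promoter of Bcl2l11 and in no other member's, against 3.17% of all windows, and neither the E box CACGTG (6.02% of all windows) nor TATAAA or TTTATA (12.4%) stood in any of the 16. The windows of Bok and Bcl2l1 are shown because these genes moved together in the comparisons below, and that of Bcl2l11 because it holds the single FOXO match. Capitals mark the GC boxes, 1 in Bok, none in Bcl2l1 and 3 in Bcl2l11, and in Bcl2l11 also GTAAACA. Sequences run 5′ to 3′ along the strand of the gene and end at the base before the RefSeq start of GRCm38.p6, the outermost of 3 for Bcl2l1, while GENCODE begins Bok at a base further downstream.
Bok, chr1:93685325-93685574, plus strand: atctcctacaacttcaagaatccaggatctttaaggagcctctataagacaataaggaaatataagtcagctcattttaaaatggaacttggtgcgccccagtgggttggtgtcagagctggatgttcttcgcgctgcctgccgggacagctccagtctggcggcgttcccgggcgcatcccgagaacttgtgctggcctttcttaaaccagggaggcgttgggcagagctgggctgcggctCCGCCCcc
Bcl2l1, chr2:152831729-152831978, minus strand: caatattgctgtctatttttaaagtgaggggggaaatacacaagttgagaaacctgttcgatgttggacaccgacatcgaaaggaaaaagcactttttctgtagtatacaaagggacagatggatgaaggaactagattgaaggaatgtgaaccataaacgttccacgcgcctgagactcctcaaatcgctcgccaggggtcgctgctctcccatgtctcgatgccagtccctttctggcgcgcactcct
Bcl2l11, chr2:128125788-128126037, plus strand: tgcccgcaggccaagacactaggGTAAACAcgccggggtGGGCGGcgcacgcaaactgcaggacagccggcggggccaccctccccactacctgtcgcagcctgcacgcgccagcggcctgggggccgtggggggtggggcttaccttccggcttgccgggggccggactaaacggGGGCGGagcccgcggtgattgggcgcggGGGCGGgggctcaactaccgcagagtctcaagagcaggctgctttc

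Compared per kilobase of the longest annotated transcript, the survival genes were led by Bcl2l1 and the death genes by Bad. In PBS once, Bcl2l1 stood at 73.2 ± 7.24 CPM per kilobase (SD, n = 3), Mcl1 at 15.9 ± 0.793, Bcl2 at 12.8 ± 1.57 and Bcl2l2 at 1.06 ± 0.0482. Among the death genes Bad stood at 24.0 ± 0.601 CPM per kilobase, Bid at 9.04 ± 0.806, Bcl2l11 at 5.93 ± 0.570, Bok at 1.41 ± 0.171, Bmf at 1.03 ± 0.361 and Bak1 at 0.520 ± 0.0376. Bcl2l2, Bmf, Bok and Bak1 were thus the low members, with 21 to 360 reads in a library, and the levels of Bcl2l2 and Bmf lay within 1 SD of each other. With the union of exons in place of the longest transcript the share of Bcl2l1 in the survival genes of PBS once was 60.3% in place of 71.0%.

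**Figure D1:**
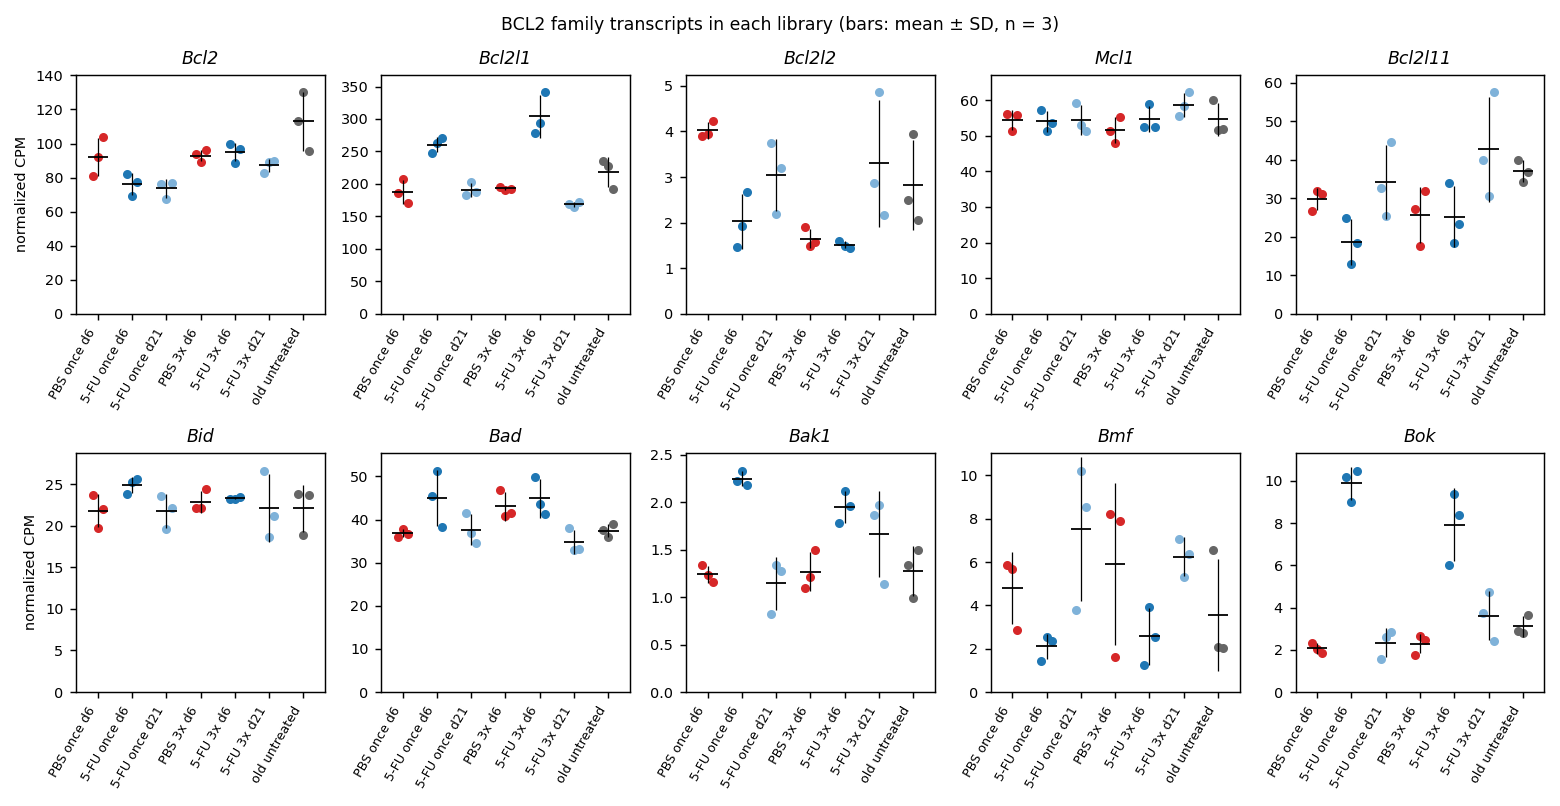
Normalized CPM of the 10 genes in each of the 21 libraries (points; red PBS, dark blue 5-FU at day 6, light blue 5-FU at day 21, grey old), with the mean of 3 libraries (horizontal bar) and SD (vertical bar). All day 6 5-FU libraries lie above all other libraries for Bok (6.00 to 10.5 CPM against 1.56 to 4.71 CPM) and Bcl2l1 (248 to 341 CPM against 165 to 236 CPM), while Mcl1 stays between 48.1 and 62.2 CPM in all 21.

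Over all 7 groups, 6 of the 10 genes differed by edgeR's quasi-likelihood test with Benjamini-Hochberg adjustment, while 37.6% of the 13571 genes tested did. They were Bcl2l1 (adjusted p = 6.25e-06), Bok (6.54e-06), Bcl2 (0.00255), Bcl2l2 (0.0203), Bad (0.0265) and Bcl2l11 (0.0346). Bmf (0.102), Bak1 (0.155), Mcl1 (0.642) and Bid (0.724) did not pass, and the calls of Bad and Bcl2l11 were lost in 10 and 4 of the 27 alternative fits. DESeq2 called 8 of the 10, adding Bak1 (adjusted p = 0.00333) and Bmf (0.0347), of which Bak1 also passed with at least 10 counts in every library (0.0256) and Bmf passed in 3 of the 27 fits in all. In data simulated for 7 groups, with a single spread for all genes, 23.1% of DESeq2's calls were false, against 3.85% of edgeR's. The measured genes do not share a single spread, so these percentages need not hold for them. In 5-FU once against PBS once at day 6, 2 of 10 genes passed, both higher, against 11.5% of all 12759 genes higher, 10.6% lower and 22.2% in either direction. The groups did not overlap for 8 of the 10, against 43.8% of all genes, and the median log2 fold change of the 10 was 0.082 against −0.00056 for all genes. In 5-FU 3 times against PBS 3 times at day 6, the same 2 genes, Bcl2l1 and Bok, passed, against 9.84% of 12729 genes higher, 8.3% lower and 18.1% in either direction. Here the groups did not overlap for 3 of 10, against 40.3% of all genes, and the median was 0.025 against −0.012.

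Bcl2l1 encodes BCL-XL, the survival protein on which platelets and erythroid precursors depend. Its levels in PBS once were 185, 208 and 171 CPM, and in 5-FU once at day 6 they were 248, 263 and 270 CPM. After 3 administrations they were 196, 191 and 193 CPM with PBS and 278, 293 and 341 CPM with 5-FU. In both comparisons every 5-FU library lay above every PBS library. Bcl2l1 rose 1.38-fold after 1 administration (log2 fold change 0.46, SE 0.085, adjusted p = 0.0110) and 1.55-fold after 3 (0.63, SE 0.091, adjusted p = 0.00620), and both calls held in all 13 alternative fits of each comparison. The difference between these 2 effects, 0.19 on the log2 scale (SE 0.13), did not pass the test of interaction (adjusted p = 0.539).

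At day 21 Bcl2l1 stood at 183, 204 and 187 CPM after 1 and at 168, 165 and 172 CPM after 3 administrations of 5-FU. It thus lay below every 5-FU library of day 6 with the same number of administrations. It fell from day 6 to day 21 by 0.44 on the log2 scale after 1 administration (SE 0.077, adjusted p = 0.00811) and by 0.85 after 3 (SE 0.094, adjusted p = 0.00206). After 3 administrations the day 21 libraries also lay below all PBS 3 times libraries, by a log2 fold change of −0.20 that did not pass (adjusted p = 0.258). DESeq2 called that difference, with an adjusted p of 0.00691, the lowest of a range that reached 0.476 over the alternatives. Old HSCs held 236, 227 and 192 CPM, and this range overlapped that of PBS once.

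Bcl2, the founding survival gene of the family, stood at 81.1, 92.0 and 104 CPM in PBS once and at 82.2, 69.4 and 77.5 CPM in 5-FU once at day 6. The groups overlapped, and the log2 fold change of −0.28 (SE 0.11) had an adjusted p of 0.108. After 3 administrations PBS gave 93.7, 89.2 and 96.0 CPM and 5-FU 99.7, 88.8 and 96.5 CPM, a log2 fold change of 0.011 (adjusted p = 0.940). The highest group mean was that of old HSCs, with 113, 130 and 95.6 CPM, and the lowest that of 5-FU once at day 21, with 76.5, 67.4 and 76.9 CPM. The group means spanned 1.54-fold from lowest to highest, and the old libraries overlapped those of PBS once, PBS 3 times and 5-FU 3 times at day 6.

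Mcl1, whose short-lived protein blocks BAK and BIM, was the steadiest survival gene. Its group means ran from 51.5 to 58.7 CPM, a 1.14-fold span, and the libraries of neighbouring groups in that order overlapped. The log2 fold change with 5-FU was −0.019 after 1 administration (adjusted p = 0.884) and 0.064 after 3 (adjusted p = 0.667). At day 21 after 3 administrations it stood at 55.6, 58.3 and 62.2 CPM, above the 51.3, 48.1 and 55.3 CPM of PBS 3 times, and this difference of 0.18 on the log2 scale did not pass (adjusted p = 0.445).

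Bcl2l2 encodes BCL-W, a survival protein best known from the testis, and it was the lowest survival gene. It stood at 3.89, 3.95 and 4.24 CPM in PBS once and at 1.47, 1.93 and 2.68 CPM in 5-FU once at day 6. These groups did not overlap, yet the log2 fold change of −0.998 (SE 0.32) had an adjusted p of 0.0622, against 0.0134 with DESeq2, 0.0375 when genes needed 10 counts in every library, and 0.0134 to 0.149 over all 13 alternatives. PBS 3 times held 1.90, 1.49 and 1.56 CPM and 5-FU 3 times at day 6 held 1.60, 1.49 and 1.44 CPM, with overlap and a log2 fold change of −0.15 (adjusted p = 0.835).

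The 2 PBS groups themselves stood apart for Bcl2l2. Every library of PBS 3 times lay below every library of PBS once, at a log2 fold change of −1.28 (SE 0.29, adjusted p = 0.185). DESeq2 called this difference, with an adjusted p of 0.00107 in a range of 0.00107 to 0.383 over its alternatives, and these groups also differ in the column suffix. At day 21 Bcl2l2 stood at 3.75, 2.19 and 3.21 CPM after 1 and at 2.88, 4.86 and 2.17 CPM after 3 administrations. Day 21 after 1 administration lay below PBS once without overlap (log2 fold change −0.40, adjusted p = 0.613) but above PBS 3 times (0.88), so the sign depended on which PBS group was used.

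Bok encodes BOK, the effector held in check by its degradation, and had the largest log2 fold change of the 10 genes between 5-FU and PBS at day 6, after 1 and after 3 administrations. Bok stood at 2.34, 2.01 and 1.84 CPM in PBS once and at 10.2, 9.0 and 10.5 CPM in 5-FU once at day 6. After 3 administrations the levels were 1.77, 2.64 and 2.45 CPM with PBS and 6.00, 9.37 and 8.39 CPM with 5-FU. Every 5-FU library at day 6 lay above every PBS library, and the lowest of them held more than every day 21 or old library. Bok rose 4.75-fold after 1 administration (log2 fold change 2.25, SE 0.19, adjusted p = 0.00111), at rank 53 of 12759 genes by p. After 3 administrations it rose 3.41-fold (1.77, SE 0.27, adjusted p = 0.00777). Both calls held in all 13 alternative fits of each comparison, with log2 fold changes of 2.17 to 2.35 and 1.61 to 1.94. The two-sided exact permutation test of either comparison gave 0.1, the smallest p that 3 against 3 libraries allow. The interaction was −0.47 on the log2 scale (SE 0.31, adjusted p = 0.529), so a smaller effect after 3 administrations was not shown.

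At day 21 Bok stood at 1.56, 2.61 and 2.85 CPM after 1 administration and at 3.74, 4.71 and 2.40 CPM after 3. From day 6 it fell by 2.06 on the log2 scale after 1 administration (SE 0.27, adjusted p = 0.00299), and this call held in all 13 alternatives. After 3 administrations it fell by 1.12 (SE 0.31, adjusted p = 0.0433), but the adjusted p was 0.0576 without a normalization factor, 0.0606 with the replicate number as a block, and 0.0817 to 0.129 when replicate 2 or 3 of day 6 or replicate 1 or 3 of day 21 was left out, the whole range over the alternatives being 0.00597 to 0.129. Old HSCs held 2.88, 2.78 and 3.65 CPM, each above all PBS once libraries, but the difference of 0.59 on the log2 scale (SE 0.35) did not pass (adjusted p = 0.515).

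Bak1 encodes BAK, an effector that sits in the outer mitochondrial membrane. It was the lowest member per kilobase in PBS once. At day 6 it went from 1.33, 1.23 and 1.16 CPM in PBS once to 2.23, 2.33 and 2.18 CPM in 5-FU once, and from 1.09, 1.21 and 1.49 CPM in PBS 3 times to 1.78, 2.12 and 1.95 CPM in 5-FU 3 times. Neither pair of groups overlapped. With 21 to 69 reads per library, the log2 fold changes of 0.85 (SE 0.37, adjusted p = 0.141) and 0.60 (adjusted p = 0.365) did not pass. From day 6 to day 21 after 1 administration the log2 fold change was −0.96, again without overlap and past no threshold (adjusted p = 0.140). BAX, the partner effector, was not among the 10 genes: Bax stood at 12.7, 13.1 and 15 CPM in PBS once and at 17.6, 15.7 and 17.9 CPM in 5-FU once at day 6, a log2 fold change of 0.32 with an adjusted p of 0.0735. It fell by 0.49 on the log2 scale from there to day 21 (adjusted p = 0.0186), a call lost in 4 of the 6 fits that left out a library. In the repeated series the log2 fold change of Bax was 0.12 at day 6 (adjusted p = 0.474) and −0.12 from day 6 to day 21 (adjusted p = 0.499).

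Bcl2l11 encodes BIM, an activator of BAX and BAK that is known as a FOXO3 target in cells deprived of cytokines. Its levels were 26.6, 31.9 and 31.1 CPM in PBS once and 24.8, 12.9 and 18.4 CPM in 5-FU once at day 6, without overlap. The log2 fold change was −0.69 and did not pass (adjusted p = 0.0602). Over the alternatives the adjusted p was 0.0192 to 0.145. Bcl2l11 passed only with DESeq2 (0.0192) and with replicate 1 of the 5-FU group, its highest library, left out (log2 fold change −0.94, adjusted p = 0.0232). After 3 administrations PBS gave 27.2, 17.7 and 31.9 CPM and 5-FU 33.9, 18.4 and 23.3 CPM, so the groups overlapped (log2 fold change −0.042, adjusted p = 0.931). At day 21 it stood at 32.8, 25.5 and 44.6 CPM after 1 administration, all above the 5-FU libraries of day 6 (log2 fold change 0.88, SE 0.27, adjusted p = 0.0517). That value passed in 7 of its 13 alternatives, among them the replicate block (adjusted p = 0.0373, in a range of 0.0104 to 0.131).

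The highest Bcl2l11 library of all, at 57.6 CPM, was replicate 3 of 5-FU 3 times at day 21, where the others held 40.0 and 30.5 CPM. Old HSCs held 40.0, 34.2 and 36.9 CPM, all above PBS once, but the log2 fold change of 0.31 (SE 0.11) did not pass (adjusted p = 0.247). The spread between libraries of one group reached a coefficient of variation of 32.1%, against at most 8.60% for Mcl1.

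BMF is a BH3-only protein tied to the cytoskeleton that is released on loss of attachment. Bmf stood at 5.86, 5.67 and 2.87 CPM in PBS once and at 1.43, 2.52 and 2.37 CPM in 5-FU once at day 6, without overlap, and the log2 fold change of −1.19 (SE 0.38) had an adjusted p of 0.0629. Leaving out the low PBS library, replicate 3, gave −1.45 and 0.0408, and over all 13 alternatives the adjusted p was 0.0211 to 0.170. In the repeated series replicate 2 of PBS was low in the same way, at 1.61 CPM beside 8.23 and 7.89 CPM, and 5-FU gave 1.26, 3.91 and 2.55 CPM (log2 fold change −1.22, SE 0.66, adjusted p = 0.247).

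From day 6 to day 21 after 1 administration Bmf rose 3.59-fold, to 3.79, 10.2 and 8.56 CPM (log2 fold change 1.84, SE 0.43, adjusted p = 0.0205). It was the only one of the 10 to pass upward in that edgeR fit, and in 5 of the 6 fits with a library left out the adjusted p was 0.0513 to 0.0640, replicate 1 of day 21 being the exception. After 3 administrations it reached 7.06, 5.30 and 6.38 CPM, above all 3 5-FU libraries of day 6, but 1.29 on the log2 scale (SE 0.42) did not pass (adjusted p = 0.0700). It passed with DESeq2 (0.0178) and with replicate 2 of 5-FU 3 times at day 6 left out (0.0456), the alternatives reaching up to 0.166. Old HSCs ranged from 2.05 to 6.54 CPM, a coefficient of variation of 72.6% and the widest of any member in any group.

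Bid links death receptors to mitochondria once caspase 8 has cut its protein, and Bad is a sensitizer that growth factor signalling inactivates. Bid varied least of the death genes, with group means of 21.8 to 24.9 CPM and a 1.14-fold span. It stood at 23.6, 19.8 and 22 CPM in PBS once and at 23.8, 25.3 and 25.6 CPM in 5-FU once at day 6, without overlap (log2 fold change 0.18, adjusted p = 0.203). Bad stood at 36.0, 37.8 and 36.5 CPM and at 45.5, 51.4 and 38.3 CPM in the same groups, also without overlap (log2 fold change 0.28, adjusted p = 0.111), and passed at 0.0421 with replicate 3 of the 5-FU group left out, the lowest of a range that reached 0.280. After 3 administrations the log2 fold changes were 0.0065 for Bid (adjusted p = 0.964) and 0.039 for Bad (adjusted p = 0.822). The Bad libraries of day 21 after 3 administrations, 38.0, 33.0 and 33.2 CPM, lay below those of both PBS 3 times and 5-FU 3 times at day 6, by −0.32 (adjusted p = 0.248) and −0.37 (adjusted p = 0.0524). The latter passed with the replicate block (0.0413), DESeq2 (0.0197), at least 10 counts in every library (0.0473) and a single fit of all 21 libraries (0.0156), in a range that reached 0.148. PBS 3 times lay above PBS once for Bad in every library (log2 fold change 0.23, adjusted p = 0.320).

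**Figure D2:**
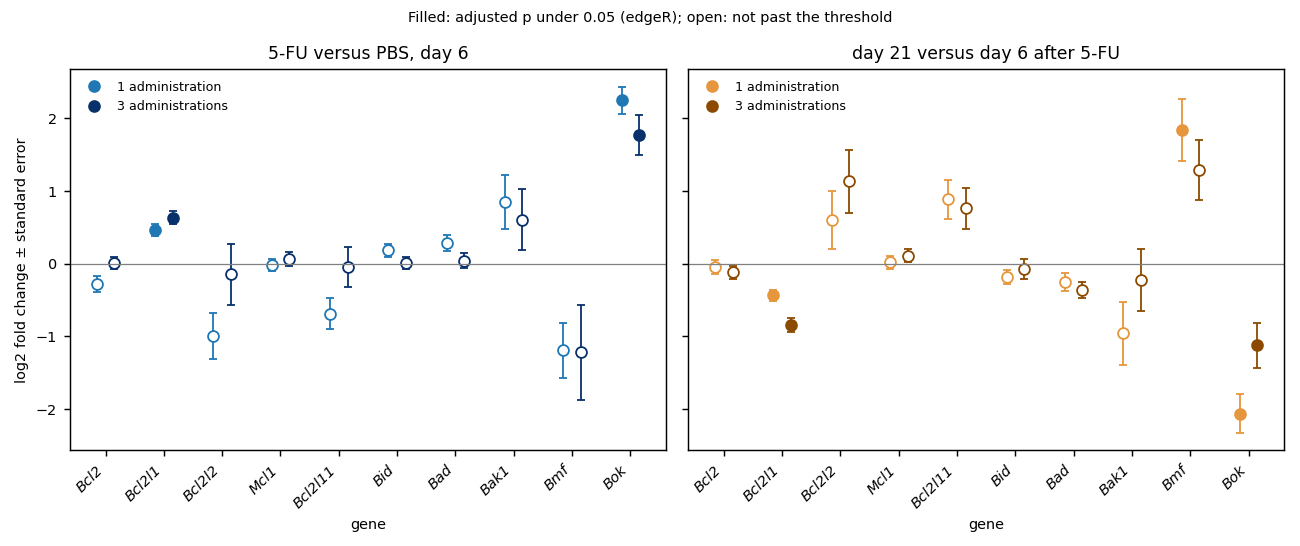
Log2 fold changes of the 10 genes with standard errors, left for 5-FU against PBS at day 6 and right for day 21 against day 6 after 5-FU, each after 1 (lighter) and 3 (darker) administrations of 3 libraries a group. Filled points passed the adjusted threshold: Bcl2l1 and Bok, higher at day 6 (0.46 and 2.25 after 1, 0.63 and 1.77 after 3 administrations) and lower at day 21, and Bmf, higher at day 21 after 1 administration (1.84).

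From day 6 to day 21 after 1 administration, 3 of the 10 genes passed, Bcl2l1 and Bok lower and Bmf higher, against 13.7% of 12589 genes lower, 12.3% higher and 26% in either direction. The groups did not overlap for 6 of the 10, against 46.1% of all genes. After 3 administrations 2 passed, both lower, against 10.8% of 12553 genes lower, 8.68% higher and 19.5% in either direction, and 5 did not overlap, against 41% of all genes. The 2 comparisons of each day 6 group are not independent, since the same libraries set both.

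Where day 21 was set against PBS, 0 of the 10 genes passed in edgeR, after 1 as after 3 administrations, and few genes of the whole table did, 0.221% and 0.0475%. At an unadjusted p under 0.05 there were 1 and 3 members, and DESeq2 called 0 and 1, the latter Bcl2l1. The groups did not overlap for 2 of the 10 after 1 administration, against 21% of all genes, and for 4 after 3 administrations, against 21.4%. The first 2 were Bcl2, whose log2 fold change was −0.33 (adjusted p = 0.277), and Bcl2l2. The other 4 were Bcl2l1 and Bad, lower, and Mcl1 and Bcl2l2, higher, the last by 0.99 on the log2 scale (adjusted p = 0.375).

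Between old HSCs and PBS once, 0 members passed in edgeR against 1.88% of all genes, with 1 at an unadjusted p under 0.05 and 0 in DESeq2, and 2 did not overlap, against 20.6% of all genes: Bcl2l11 and Bok, both higher in old. Between PBS 3 times and PBS once 0 passed against 0.0156% of all genes, with 2 at an unadjusted p under 0.05 and 1, Bcl2l2, in DESeq2, and 2 did not overlap, against 20%. In the test of interaction 0 passed against 0.65% of 13227 genes, with 1 at an unadjusted p under 0.05 and 0 in DESeq2, which does not show that the effects of 1 and 3 administrations were alike.

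As shares of the survival transcripts per kilobase, Bcl2l1 made up 71.0% in PBS once and 79.0% in 5-FU once at day 6, then 73.4% at day 21. In the repeated series it made up 72.6% with PBS, 79.9% with 5-FU at day 6 and 68.5% at day 21, and in old HSCs 72.4%. Bok made up 3.35% of the 6 death genes in PBS once, 13.1% in 5-FU once at day 6 and 3.64% at day 21, and 3.43%, 10.7% and 5.59% in the repeated series. The ratio of the summed survival to the summed death genes per kilobase was 2.46 ± 0.121 (SD, n = 3) in PBS once and 2.50 ± 0.233 in 5-FU once at day 6. In the repeated series it was 2.26 ± 0.138 with PBS and 2.93 ± 0.401 with 5-FU at day 6, without overlap, then 2.15 ± 0.207 at day 21. The death sum holds the 6 listed genes only and leaves out Bax and Bbc3, which encodes the death protein PUMA. In PBS once, Bax stood at 12.4 and Bbc3 at 23.4 CPM per kilobase, beside 41.9 for the sum of the 6 death genes. With Bax and Bbc3 included, the ratios and the shares of Bok would be lower in every group. The sums used here weigh transcripts alike whatever their proteins do, and were not tested.

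**Figure D3:**
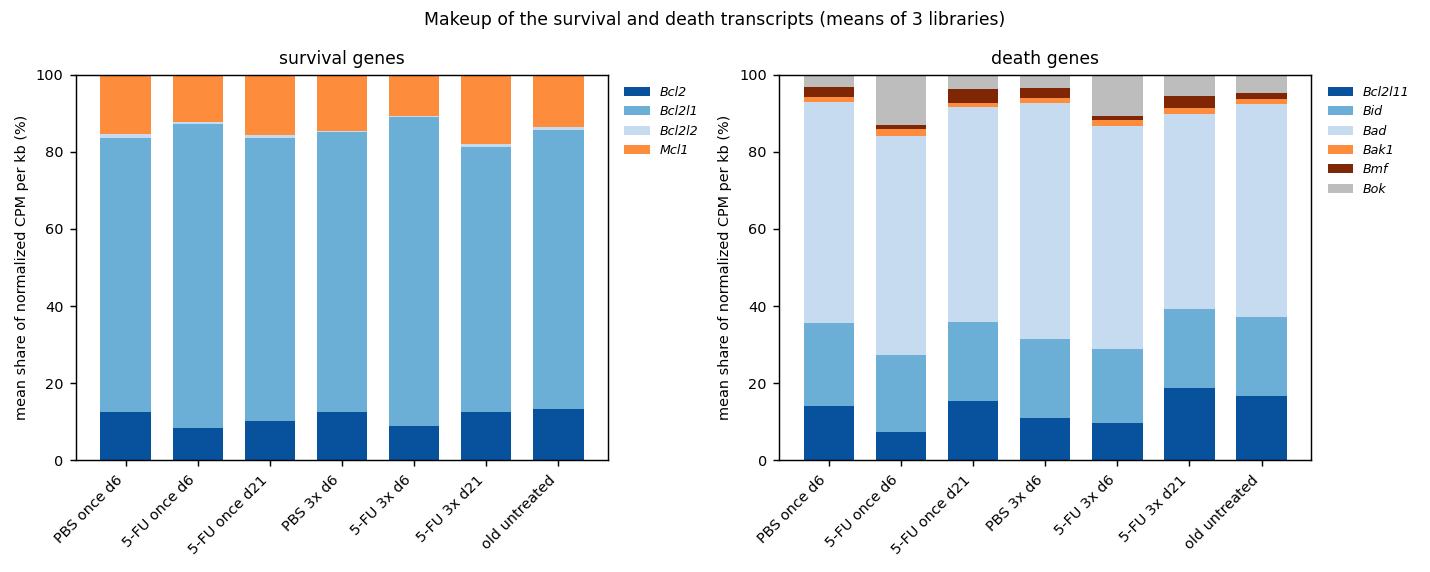
Mean share of each gene in the summed normalized CPM per kilobase of the 4 survival genes (left) and the 6 death genes (right), for each group of 3 libraries. Bcl2l1 takes 68.5% to 79.9% of the survival transcripts, and the share of Bok among the death genes widens at day 6 after 5-FU, to 13.1% and 10.7%.

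Further genes of the pathway were read from 3 lists. Of 15 other BCL2 family genes 9 could be tested at day 6, and after 1 administration 0 passed in edgeR, against 22.2% of all genes, 3 at an unadjusted p under 0.05 and 0 in DESeq2. After 3 administrations 1 passed, against 18.1% of all genes: Bnip3, a mitochondrial receptor of mitophagy (log2 fold change −0.44, adjusted p = 0.0378), and this call was lost in all 6 fits with a library left out. Bbc3, which encodes the p53 target PUMA, stood at 40.2, 61.7 and 47.0 CPM in PBS 3 times and at 37.9, 31.9 and 25.8 CPM in 5-FU 3 times at day 6, a log2 fold change of −0.66 (adjusted p = 0.0564). That value passed in 5 of its 13 alternatives, with adjusted p of 0.0117 by DESeq2 as the lowest and 0.158 as the highest. Bbc3 rose from there to day 21 by 0.76 (adjusted p = 0.0148), while after 1 administration of 5-FU its difference from PBS was −0.18 (adjusted p = 0.446). Pmaip1, which encodes NOXA, had 0 to 23 reads in a library and was not tested in these pairs.

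All 22 genes listed for the steps after the mitochondrion and for death receptors were tested. After 1 administration 3 rose and 2 fell at day 6: Casp8, the death receptor caspase that cuts BID, rose by 0.38 (log2, adjusted p = 0.00902), and Cycs, cytochrome c, by 0.44 (adjusted p = 0.00974), while Cflar, the inhibitor of caspase 8, fell by 0.31 (adjusted p = 0.0251). After 3 administrations 4 rose and 2 fell, with Casp8 at 0.32 (adjusted p = 0.0235), Aifm1, a mitochondrial flavoprotein, at 0.34 (adjusted p = 0.0261) and Vdac1, an outer membrane channel, at 0.37 (adjusted p = 0.0308). These shares of 5 and 6 of 22 stand beside the 22.2% and 18.1% of all genes that passed. After 1 administration Casp8 and Cycs passed in all 13 alternatives, with a highest adjusted p of 0.0327 and 0.0348. With the replicate block Cflar had an adjusted p of 0.0633 after 1 administration, and Casp8, Aifm1 and Vdac1 had 0.0627, 0.0640 and 0.0809 after 3. Over the alternatives of these comparisons the highest adjusted p was 0.127 for Cflar, and 0.0726, 0.0824 and 0.0894 for the other three.

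**Figure D4:**
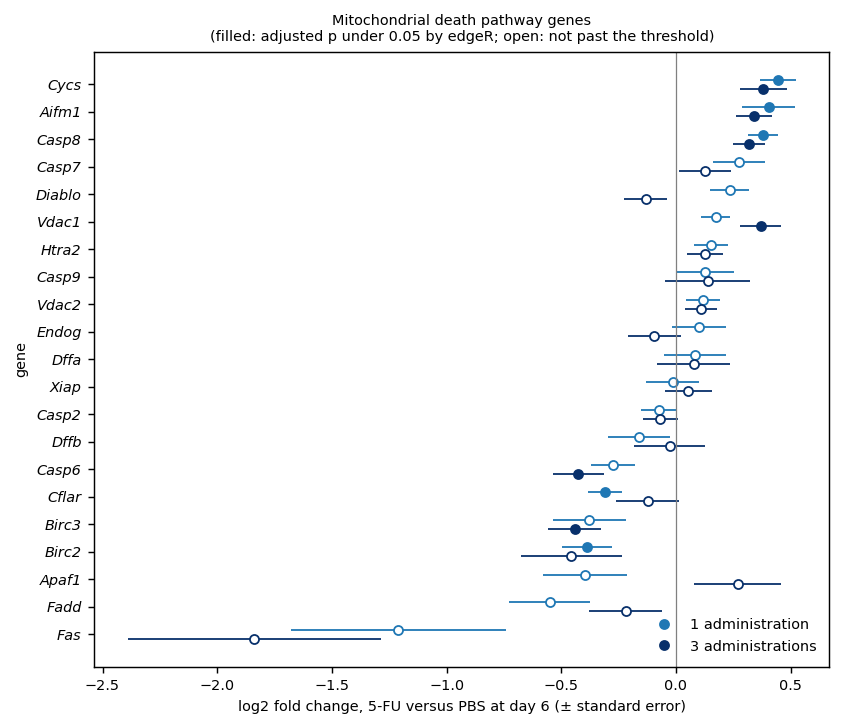
Log2 fold changes, with standard errors, of 21 of the 22 genes of the mitochondrial and death receptor pathway for 5-FU against PBS at day 6 after 1 (lighter) and 3 (darker) administrations, 3 libraries a group. Filled points passed the adjusted threshold, which 5 and 6 of all 22 genes did. Casp8, Cycs and Aifm1 were among the genes with higher means in both comparisons, whether or not they passed.

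Of 8 genes whose products regulate the members, such as Trp53 and Foxo3, 0 passed after 1 administration in edgeR, against 22.2% of all genes, 1 at an unadjusted p under 0.05 and 0 in DESeq2. After 3 administrations 1 passed, against 18.1% of all genes: Pim1, a kinase that phosphorylates BAD, which fell by 0.74 on the log2 scale (adjusted p = 0.0389) and did not pass with the replicate block (0.0875). The call of Pim1 was lost in 6 of 13 alternatives, the rest of them with a library left out, with a highest adjusted p of 0.0990. Beside these values Kit, which defines the gate that was widened, fell by 0.86 on the log2 scale after 1 administration (adjusted p = 0.00111) and by 0.44 after 3 (adjusted p = 0.00701).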

How the data were processed

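RNA of sorted HSCs was amplified with SMART-Seq v4 and made into Nextera XT libraries, sequenced as single-end reads of 75 bases. The input was 3000 to 3500 HSCs for libraries of treated mice, and the number for old mice is not given. According to the submitters' processing notes and the study's methods, the authors aligned reads with TopHat 2.0.13 to mm10 with iGenomes annotation and quantified expression with Cuffdiff of Cufflinks 2.2.1. The deposited table holds whole-number counts, without normalization, for 21000 gene symbols in 21 libraries. The program that made these counts and whether it used strand are not given in the sources used here. No molecular identifiers are mentioned, so the floor of 3 counts covers counting error only. The study names 3 independent experiments per cell type, and within a group any 2 libraries differed by 16.8 to 37.2 times what read sampling alone gives, so none is a copy.

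Groups came from the labels. CPM used totals of 22184885 to 38649033 and TMM factors over all 21 libraries. Each comparison was fitted on the whole table with edgeR 4.0.16 in R 4.3.3 (filterByExpr, TMM, quasi-likelihood F test), with Benjamini-Hochberg adjustment over all genes kept and a threshold of 0.05. For single genes a two-sided exact permutation test was added, which with 20 assignments cannot go below 0.1. The scripts were tested on simulated data, with a single spread for all genes and 200 genes changed. In a simulated comparison of 2 groups 3.85% of edgeR's calls and 11.2% of DESeq2's were false. In that setting DESeq2 was less strictly controlled than the threshold of 0.05 implies. Whether this holds for the measured genes, which do not share a single spread, was not tested. DESeq2 1.42.0, other scalings and filters, the replicate number as a block, a single fit of 21 libraries and leaving out each library were the alternatives. Libraries that share a number had deviations with mean correlations of −0.0115 to 0.0256 over the 8 comparisons, so numbers were not taken as pairs. The members, lists and tests were chosen with earlier results of these data known. All members were named, from the other lists Bax, Bbc3, Pmaip1 and up to 3 genes per comparison with the lowest adjusted p past the threshold, and the 3 genes most like the 2 members with the lowest p over all 7 groups. Kit was named for the gate, and 1 gene of the pathway list is not reported here beyond its place in the counts. Positions and lengths came from GENCODE (vM21) on GRCm38 and promoters from RefSeq on GRCm38.p6. Figures were drawn with matplotlib 3.10.9.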

Additional observations from a re-analysis of the deposited data

How the results depend on the processing

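Each comparison was refitted under 13 to 27 alternatives. In 5-FU against PBS at day 6, the calls of Bok and Bcl2l1 were kept under every one of the 13 after 1 and after 3 administrations. The number of members past the threshold after 1 administration was 5 with DESeq2 and 4 with at least 10 counts in every library, in place of 2, and 2 to 3 with a library left out. From day 6 to day 21 after 3 administrations it was 1 without a normalization factor, 6 with DESeq2 and 4 in a single fit of all 21 libraries, in place of 2, and 1 to 2 with a library left out. DESeq2 called 1 member in place of 0 at day 21 after 3 administrations against PBS 3 times, and 1 in place of 0 between the PBS groups. The share of Bcl2l1 in the survival genes per kilobase in PBS once was 60.3% with the union of exons in place of 71.0%. Without a normalization factor the median log2 fold change of all genes moved to −0.11 after 3 administrations at day 6 and to 0.12 from day 6 to day 21, and in the first of these Bcl2 became −0.091, Mcl1 −0.035, Bid −0.094 and Bad −0.059, all still above that median. Bid became −0.000278 with at least 10 counts in every library, and Bcl2l2 at day 21 after 1 administration became 0.88 with PBS 3 times as the control. With a library left out, the log2 fold change ranged from −0.061 to 0.020 for Mcl1 after 1 administration, and after 3 from −0.021 to 0.062 for Bcl2, −0.31 to 0.15 for Bcl2l11, −0.018 to 0.058 for Bid and −0.040 to 0.10 for Bad, so that their direction was not settled. Libraries of different groups share only a replicate number: with the replicate number as a block the genes called fell from 2827 to 2041 after 1 administration and from 2310 to 1509 after 3, with 2 members in each, and no comparison had every same-numbered pair correlated above 0.1. Depth limits Bak1, Bok, Bmf and Bcl2l2 most, with as few as 21 reads in a library. The causes of these shifts were not tested.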

Other observations

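The genes most like the 2 members with the lowest p over all groups were read from the 7 group means of log2 CPM, among 9266 genes with a mean of at least 10 CPM. For Bok they were Ccnd1, which encodes cyclin D1 (Pearson r = 0.996), Srp72, a subunit of the signal recognition particle (0.992), and Dad1, a subunit of the oligosaccharyl transferase (0.987). Group means of Ccnd1 ran from 19.6 to 97.4 CPM, while those of Srp72 ran only from 40.5 to 45.8 CPM. For Bcl2l1 they were Ttc13 (0.996), Cul2 (0.993), a scaffold of ubiquitin ligases, and Azin1 (0.992), an inhibitor of the antizyme that degrades ornithine decarboxylase. The points are 7 group means of the same libraries, and r is given as a description.

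After 5-FU once, 8 of the 22 pathway genes passed from day 6 to day 21, against 26% of all genes, 5 higher and 3 lower: Cycs fell by 0.62 on the log2 scale (adjusted p = 0.00712), while Birc2, an inhibitor of apoptosis protein, rose by 0.61 (adjusted p = 0.0114) and Cflar by 0.57 (adjusted p = 0.0210). The calls of Cycs and Birc2 held in all 13 alternatives. That of Cflar was lost in 4 of 13, each with a library left out, with a highest adjusted p of 0.0724. After 3 administrations 6 passed, against 19.5% of all genes, 2 higher and 4 lower. Aifm1 fell by 0.51 (adjusted p = 0.00874), and Birc3 rose by 0.84 (adjusted p = 0.00983). Day 21 against PBS gave 0 of 22 in edgeR after 1 and after 3 administrations, against 0.221% and 0.0475% of all genes, with 1 gene at an unadjusted p under 0.05 in each and 1 and 0 in DESeq2. Bcl2l13, a family member of the outer mitochondrial membrane, fell by 0.50 from day 6 to day 21 after 3 administrations (adjusted p = 0.0478), a call lost in 5 of 6 fits with a library left out, with other scalings and with the replicate block (adjusted p = 0.0671). In old HSCs Pim1 was higher than in PBS once by 0.88 on the log2 scale (adjusted p = 0.00932, and 0.0532 with the replicate block), but by only 0.22 against PBS 3 times (adjusted p = 0.758).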
